A study of Mus musculus with 12 samples.

Results

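Basp1, Marcks and Marcksl1 encode a group of related membrane proteins, and their RNA counts were followed across 4 groups of mouse bone marrow-derived macrophages. These 3 symbols out of 24552 were chosen by name and protein relationship, with earlier results of these data known. The measured values that drew attention were the difference between M1-like and M0 cells and the effect of ISRIB in each state, above all for Basp1. Those differences are therefore given as a description, without p-values, and where they passed or missed a threshold this is stated only beside the share of all genes that did.

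Macrophages were grown from mouse bone marrow for 6 days with the growth factor M-CSF at 10 ng/ml. They then received vehicle (DMSO) or 50 nM ISRIB for 1 h. ISRIB is a small molecule that blunts the integrated stress response, the pathway that lowers general protein synthesis when eIF2 is phosphorylated. For the M1-like state, LPS (10 ng/ml) and IFN-γ (25 ng/ml) were added for 16 h while vehicle or ISRIB stayed on. M0 and M1 cells given vehicle, and M0 and M1 cells given ISRIB, made up 4 groups of 3 samples, called biological replicates in the labels. What M0 cells received during the stimulation is not spelled out, nor whether replicates came from separate animals, so any p-value here measures the spread between these samples, which may be partly technical.

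BASP1, MARCKS and the MARCKS-like protein MARCKSL1 sit on the inner face of the plasma membrane. They carry an N-terminal fatty acid (myristate) and basic residues that bind acidic lipids such as PI(4,5)P2, and they influence how actin filaments are attached and remodelled there. Protein kinase C phosphorylation or calmodulin binding releases MARCKS and MARCKSL1 from the membrane. In macrophages MARCKS and MARCKSL1 are long known as products induced by bacterial lipopolysaccharide, while BASP1 is best known from the growing nerve ending, where its relative GAP43 also acts.

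The coding sequences show what joins the 3 genes and what separates them. Their first 30 coding bases are given below because the second codon, in capitals, encodes the glycine that receives the myristate. The bases were read from the GENCODE M21 transcripts (GRCm38), 5′ to 3′.
Basp1: atgGGAggcaagctgagcaagaagaagaag
Marcks: atgGGTgcccagttctccaagaccgcagcg
Marcksl1: atgGGCagccagagctctaaggctccccgg
The second codon was a glycine codon in all 3 genes. The coding sequences held 226 codons in Basp1, 309 in Marcks and 200 in Marcksl1, without the stop codon.

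Of all in-frame, ungapped windows of 25 codons, the most alike pair between Marcks and Marcksl1 is shown next, because it lies in the basic effector domain that binds lipid, calmodulin and actin and is phosphorylated by protein kinase C. Capitals mark the bases that differ. It spans coding bases 436 to 510 of Marcks and 259 to 333 of Marcksl1, counted from the A of the start codon.
Marcks: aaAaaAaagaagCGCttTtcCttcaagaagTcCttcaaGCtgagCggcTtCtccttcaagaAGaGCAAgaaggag
Marcksl1: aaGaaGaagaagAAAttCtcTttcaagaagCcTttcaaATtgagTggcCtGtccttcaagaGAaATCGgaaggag
In it, 55 of 75 bases were identical (73.3%). The best window between Basp1 and Marcks had 51 identical bases (68.0%), and that between Basp1 and Marcksl1 had 42 (56.0%). Both lay near the 3′ end of the Basp1 coding sequence, outside the effector domain of Marcks and Marcksl1.

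On GRCm38, Basp1 lies on the minus strand at chr15:25363277-25413764, with 2 annotated transcripts. In the longer coding one all coding bases lie in the last of 2 exons. Marcks lies on the minus strand at chr10:37133375-37138920 and Marcksl1 on the plus strand at chr4:129513581-129515985, each with 2 exons that both carry coding bases. No exon of another gene overlapped any of the 3 on the opposite strand. The nearest opposite-strand genes were Gm5468, which starts 427 bases beyond Basp1 and had at most 2 counts in a library, 5930403N24Rik, 481 bases from Marcks, and Hdac1, a histone deacetylase gene whose annotated end lies 118 bases from that of Marcksl1. Its counts were at most 10 in vehicle M0 (replicate 1, with 0 in the others) and at most 8 in vehicle M1 (replicate 3).

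This position sets the 3 genes apart from most of the deposited counts. Total counts ran from 439976 to 514037 per library, and symbols with an exon overlapping a gene on the opposite strand (5795 of the 24030 matched to GENCODE M21) held 80.3% to 87.9% of them. The libraries were strand-specific, and the strand setting of the counting is not given in the sources used here, and whether the counts of a symbol came from its own strand was not tested. This holds for Basp1, Marcks and Marcksl1 as well, so each value below is a count at the locus whose strand is unknown. All 10 macrophage markers had counts, with a summed level of 357 to 886 CPM. At 0 in all 12 libraries were 4 of 8 neutrophil markers (Ly6g, Elane, Mpo and Ltf), 3 of 5 of B cells, the 3 of T cells in the table and 4 of 4 of fibroblasts. Neutrophil markers summed to at most 9.62 CPM in a library (vehicle M1) and B cell markers to at most 8.32 (ISRIB M0). Erythroid markers summed to at most 1.79 CPM (vehicle M0) and mast cell or basophil markers to at most 3.75 (ISRIB M0). The 4 dendritic markers summed to 0 to 25.0 CPM in vehicle M1 and 0 to 6.08 in vehicle M0. Of these, Flt3 and Zbtb46 were at 0. The part of such cells in the results was not tested. Among the polarization markers, every M0 library had 0 counts of Nos2, Cxcl9 and Cxcl10 and every M1 library 10 or more of each, Il1b had at most 2 in M0 and 12 or more in M1, and Cd163 had at least 1488 in M0 and at most 11 in M1.

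Basp1 carried most of the signal. It averaged 543.9 counts per library and ranked 158 among all symbols by mean count, and 7 among the 6771 counted genes with no opposite-strand exon overlap. Marcks averaged 30.5 counts and Marcksl1 10.7, so that 1 count, worth 1.79 to 2.57 CPM, weighs heavily in these values. CPM here is the usual depth-scaled count, with library sizes corrected by TMM factors. All 3 passed the filter on low counts. Marcksl1 passed it through its M1 libraries alone, since it had at most 8 counts in an M0 library. Gap43 had 0 counts in all 12 libraries, which allows a share of up to 0.000682% (3 counts) in the shallowest.

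Basp1 was high in M1-like cells. In vehicle M0 it had 156, 249 and 131 counts, or 289, 446 and 265 CPM. In vehicle M1 it had 801, 989 and 1140 counts, or 2006, 2542 and 2740 CPM. The lowest vehicle M1 library was thus far above the highest vehicle M0 library. The fitted log2 fold change was 2.86 ± 0.25 (SE), or 7.26-fold, where the median of all 2356 tested genes was 0.01. TMM factors were 0.876 to 0.917 in vehicle M1 and 1.07 to 1.15 in vehicle M0, and mean raw counts, before any scaling, were 977 and 178.7.

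With ISRIB the same gene spanned a narrower range. In ISRIB M0 it had 169, 499 and 312 counts, or 351, 908 and 584 CPM. In ISRIB M1 it had 721, 893 and 467 counts, or 1802, 2005 and 1094 CPM. In CPM every ISRIB M1 library was above every ISRIB M0 library, with a log2 fold change of 1.41 ± 0.24 (SE), or 2.65-fold. Raw counts and plain library shares did overlap. ISRIB M1 replicate 3 had 467 counts (0.0980%) and ISRIB M0 replicate 2 had 499 (0.1008%), with TMM factors of 0.918 and 1.14. Group means were 333 ± 98 CPM (SD, n = 3) in vehicle M0, 615 ± 279 in ISRIB M0, 1634 ± 478 in ISRIB M1 and 2429 ± 380 in vehicle M1, which is also the order of the groups.

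Neighbours in that order were close in places. Vehicle M0 and ISRIB M0 overlapped, since ISRIB M0 replicate 1 lay below vehicle M0 replicate 2. ISRIB M1 and vehicle M1 only just failed to overlap, at 2004.7 CPM for the highest ISRIB M1 library and 2005.9 for the lowest vehicle M1 library, a gap smaller than the worth of 1 count, and their raw counts did overlap. The difference of ISRIB from vehicle was 0.88 ± 0.25 on the log2 scale (SE) in M0 and -0.57 ± 0.23 in M1. Their difference, the interaction, was -1.46 ± 0.34. Without ISRIB M0 replicate 1, the lowest of its group for all 3 genes, the M0 difference of Basp1 became 1.17 and the interaction -1.74, while without ISRIB M0 replicate 2, the highest, they were 0.50 and -1.07. The M1 difference was -0.35 without ISRIB M1 replicate 3, the lowest of its group, and -0.75 without replicate 2, the highest.

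Marcks had a different pattern, in which vehicle M0 was the low group. It had 7, 26 and 13 counts in vehicle M0, or 13.0, 46.5 and 26.3 CPM. In vehicle M1 it had 32, 36 and 34 counts, or 80.1, 92.5 and 81.7 CPM. In ISRIB M0 it had 32, 54 and 51 counts, or 66.6, 98.2 and 95.5 CPM. In ISRIB M1 it had 34, 22 and 25 counts, or 85.0, 49.4 and 58.5 CPM. In CPM all 9 libraries of the other groups lay above the 3 of vehicle M0. The gap was narrow, as the lowest of them, in ISRIB M1, was only 49.4 CPM against 46.5 for the highest vehicle M0 library. Raw counts overlapped, at 22 and 25 in ISRIB M1 replicates 2 and 3 against 26 in vehicle M0 replicate 2. Plain library shares overlapped too, at 0.00446% in ISRIB M1 replicate 2 and 0.00523% in vehicle M0 replicate 2. The 3 other groups overlapped each other.

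The spread of Marcks in vehicle M0 was wide. Its mean there was 28.6 ± 16.9 CPM (SD, n = 3), against 84.8 ± 6.7 for M1 with vehicle, 86.8 ± 17.6 for M0 with ISRIB and 64.3 ± 18.5 for M1 with ISRIB. The 7 counts of vehicle M0 replicate 1 were 0.00136% of that library, with an exact (Clopper-Pearson) 95% interval of 0.000548% to 0.00281%, and the 32 counts of ISRIB M0 replicate 1 were 0.00697%, with an interval of 0.00477% to 0.00983%. Vehicle M0 replicates 2 and 3 had intervals of 0.00342% to 0.00766% and 0.00151% to 0.00485%. Both overlap the interval of ISRIB M0 replicate 1. Such intervals cover counting error only. The fitted log2 fold change of M1 against M0 was 1.55 ± 0.43 (SE) in vehicle, or 2.93-fold, and -0.44 ± 0.41 in ISRIB. ISRIB differed from vehicle by 1.59 ± 0.43 in M0, or 3.01-fold, and by -0.40 ± 0.41 in M1. The interaction was -1.99 ± 0.59. Leaving out vehicle M0 replicate 1 gave 1.24 for the ISRIB difference in M0, and leaving out replicate 2 gave 2.16.

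Marcksl1 was higher in every M1 library, at counts that allow only a coarse reading. In vehicle M0 it had 5, 3 and 8 counts, or 9.26, 5.37 and 16.2 CPM. In vehicle M1 it had 17, 19 and 18 counts, or 42.6, 48.8 and 43.3 CPM. In ISRIB M0 it had 0, 6 and 7 counts, or 0, 10.9 and 13.1 CPM. In ISRIB M1 it had 13, 22 and 10 counts, or 32.5, 49.4 and 23.4 CPM. The 2 states did not overlap. The 0 in ISRIB M0 replicate 1 was 0 of 459336 counts, which allows a share of up to 0.000653% (3 counts).

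Means of Marcksl1 were 10.3 ± 5.5 CPM (SD, n = 3) in vehicle M0, 8.01 ± 7.02 in ISRIB M0, 35.1 ± 13.2 in ISRIB M1 and 44.9 ± 3.4 in vehicle M1. The log2 fold change of M1 against M0 was 2.11 ± 0.76 (SE) in vehicle and 2.07 ± 0.79 in ISRIB. ISRIB differed from vehicle by -0.31 ± 0.84 in M0 and by -0.35 ± 0.70 in M1, both smaller than their standard errors. The interaction was -0.04 ± 1.09 (SE). At the threshold used below, its M1 call in ISRIB was lost without ISRIB M0 replicate 1, the library with 0 counts (1.54), or without ISRIB M1 replicate 1 or 2. Its M1 call in vehicle was lost without vehicle M0 replicate 1 or 2 (1.83 without the latter) or vehicle M1 replicate 2.

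**Figure D1:**
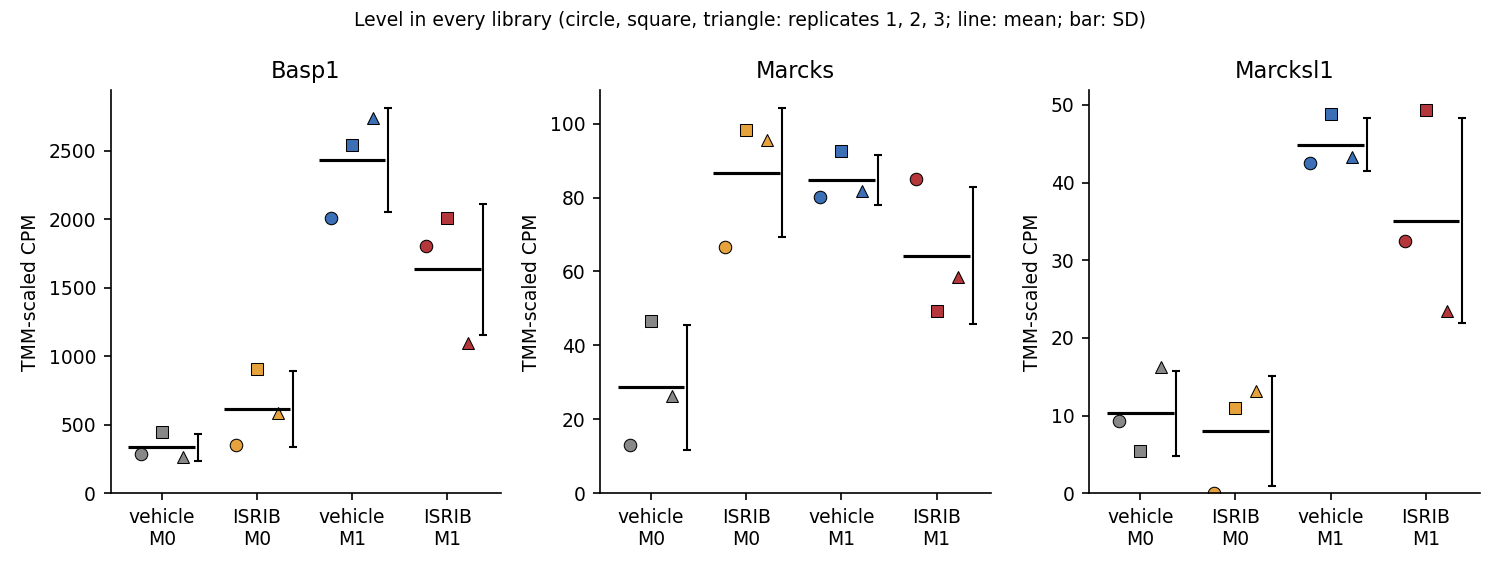
TMM-scaled CPM (vertical axis, linear) of Basp1, Marcks and Marcksl1 in each of the 12 libraries by group, with the mean as a line and the SD as a bar (n = 3). On this scale both M1 groups of Basp1 and Marcksl1 sit above both M0 groups. For Marcks only vehicle M0 sits apart, at 13.0 to 46.5 CPM, and narrowly so, with the lowest ISRIB M1 library at 49.4.

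The deposited log2 values, which use another scaling, gave the same order for Basp1. Their group means were 7.24 ± 0.38 (SD, n = 3) in vehicle M0, 8.04 ± 0.67 in ISRIB M0, 9.58 ± 0.46 in ISRIB M1 and 10.18 ± 0.21 in vehicle M1. For Marcks they were 3.67 ± 0.85 in vehicle M0, 4.97 ± 0.41 in ISRIB M1, 5.33 ± 0.29 in ISRIB M0 and 5.39 ± 0.09 in vehicle M1, an order that exchanges ISRIB M0 and vehicle M1 compared with CPM. For Marcksl1 they were 1.79 ± 1.56 in ISRIB M0, 2.43 ± 0.66 in vehicle M0, 4.10 ± 0.50 in ISRIB M1 and 4.50 ± 0.08 in vehicle M1. In bulk RNA, fewer cells that carry a transcript and less of it per cell cannot be told apart.

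Per kilobase of annotated exon, Basp1 was the highest of the 3 in every group. Its level was 166 ± 49 CPM per kb (SD, n = 3) in vehicle M0, where Marcks had 7.07 ± 4.17 and Marcksl1 6.41 ± 3.42. In vehicle M1 Basp1 stood at 1209 ± 189 CPM per kb, Marcksl1 at 27.97 ± 2.14 and Marcks at 20.9 ± 1.7. In ISRIB M0 the levels were 306 ± 139 for Basp1, 21.4 ± 4.3 for Marcks and 4.99 ± 4.38 for Marcksl1, and in ISRIB M1 they were 813 ± 238, 15.9 ± 4.6 and 21.9 ± 8.2 CPM per kb. Marcks and Marcksl1 overlapped in vehicle M0 and in ISRIB M1. They did not overlap in vehicle M1, where Marcksl1 was higher, or in ISRIB M0, where Marcks was higher.

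Set against all genes, the M1 difference was a common kind of change. A gene was called at an adjusted p under 0.05 (Benjamini-Hochberg) in the quasi-likelihood test of edgeR. All 3 genes were called higher in vehicle M1 than in vehicle M0, where 44.8% of the 2356 tested genes were called (24.3% higher and 20.5% lower). Between ISRIB M1 and ISRIB M0 Basp1 and Marcksl1 were called higher and Marcks was not, where 44.8% of genes were called (23.9% higher and 20.9% lower). These contrasts chose the genes, so the counts support nothing further. Marcksl1 also passed the filter through M1 alone, and lost both calls without it. Basp1 ranked 231 from the top by fitted log2 fold change in vehicle and 453 in ISRIB, Marcks 433 and 1494, and Marcksl1 321 and 325.

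In the ISRIB contrasts 0 of the 3 genes were called, where 0% of all genes were called in M0, in M1 or in the interaction. Unadjusted p-values under 0.05 were held by 143, 134 and 167 of the 2356 genes in those contrasts, and by 2, 1 and 2 of the 3. The DESeq2 Wald test called 3, 0 and 0 genes and limma on the deposited log2 values 0 in each, and neither called any of the 3. Without a filter on low counts, edgeR called 10 of 10978 genes in M0 (0.0911%) and 9 in the interaction (0.082%), and Basp1 was called in both. These contrasts too helped to choose the genes. By size, Marcks ranked 76 and Basp1 202 from the top of the ISRIB difference in M0, and in M1 Basp1 ranked 325 and Marcks 456 from the bottom. For the interaction Marcks ranked 109, Basp1 178 and Marcksl1 1152 from the bottom.

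**Figure D2:**
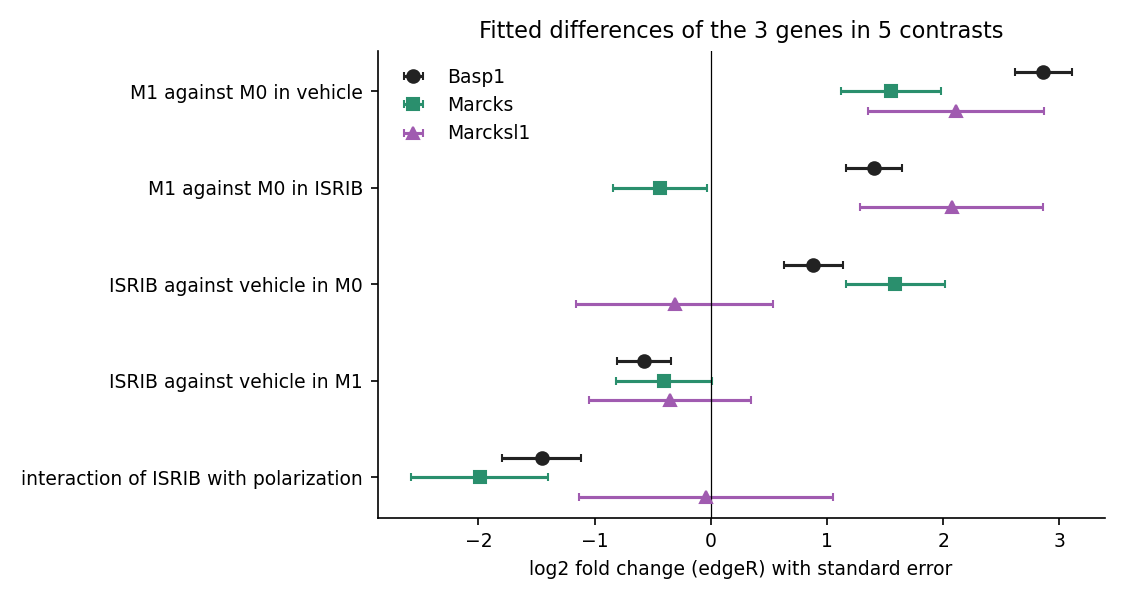
Fitted log2 fold change with its standard error (horizontal axis) of the 3 genes in 5 contrasts of the edgeR fit. Basp1 and Marcks lie to the right of 0 for ISRIB in M0 and to the left of 0 for the interaction (-1.46 and -1.99), while that of Marcksl1 (-0.04) has a bar on both sides of 0.

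The effects of ISRIB in M0 and in M1 rest on separate libraries and can be set side by side for every gene. Among 1286 tested genes that averaged 20 counts or more, the middle size of the ISRIB difference on the log2 scale was 0.17 in M0 and 0.19 in M1, and 95% of them stayed under 0.90 and 0.82. The effects of Basp1 and Marcks, given above, were among the values that drew attention to these genes, so nothing is read from their place among the others.

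**Figure D3:**
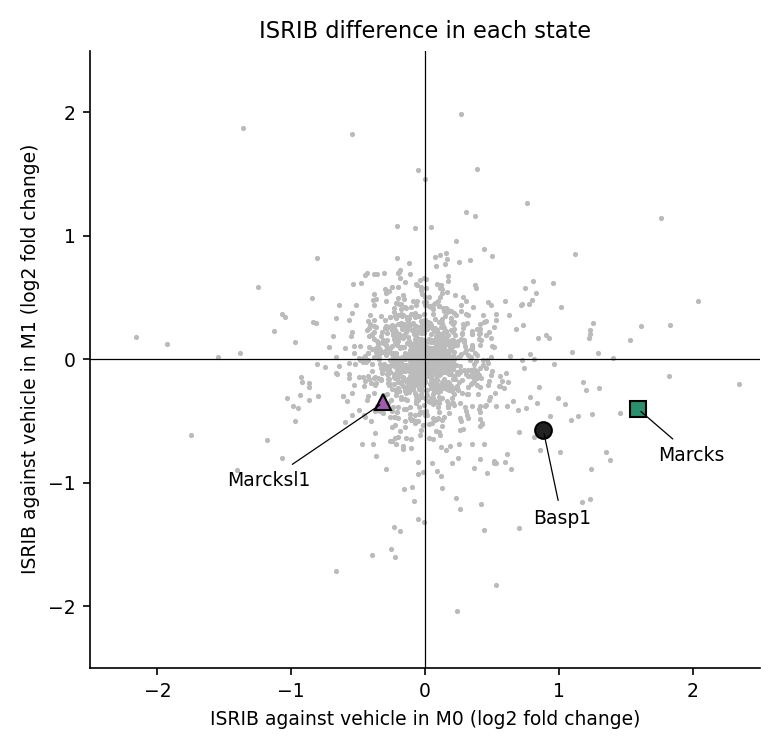
Log2 fold change of ISRIB against vehicle in M0 (horizontal axis) and in M1 (vertical axis). Grey points are 1272 other tested genes that averaged 20 counts or more, and 12 such genes lie outside the axes at 2.5. Basp1 (0.88 and -0.57) and Marcks (1.59 and -0.40) fall in the lower right and Marcksl1 (-0.31 and -0.35) near the centre.

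Genes with the profile most like each member were named by the root mean square difference of log2 CPM over the 12 libraries, each gene centred on its own mean, among tested genes averaging 20 counts or more. The libraries are shared, and the largest differences between groups of a gene weigh most in the measure. For Basp1 they were Nfkbil1 (0.27), 4931440P22Rik (0.31) and Tifa, an adaptor of TRAF signalling (0.42), where the median of 1285 candidates was 1.30. Nfkbil1 overlaps Atp6v1g2 and Gm16181 on the opposite strand, 4931440P22Rik overlaps Tiparp and Tifa overlaps Gm43654. All 3 had a smaller M1 difference with ISRIB than with vehicle, with log2 fold changes of 2.88 and 1.89 for Nfkbil1, 2.51 and 1.36 for 4931440P22Rik, and 3.50 and 1.82 for Tifa in vehicle and ISRIB. That follows from being selected for likeness to Basp1.

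For Marcks the nearest profiles were Mtdh (0.43), 4930539J05Rik (0.46), which overlaps Ube2d3, and Pitpna, a phosphatidylinositol transfer protein gene (0.46), with a median of 0.91 over candidates. Their ISRIB differences in M0 were 1.20, 0.93 and 1.38 on the log2 scale, and in M1 -0.25, -0.46 and -0.81. Those values follow from being selected for likeness to Marcks, which was low in vehicle M0, and support nothing further. For Marcksl1 the nearest profiles were Tor1aip1 (0.49), Ogfr, the opioid growth factor receptor gene (0.51), and Fyb, an adaptor that links receptors to actin (0.51), with a median of 1.21. Tor1aip1 overlaps Tor1aip2 and Fyb overlaps Gm2245. Among the members themselves, Basp1 and Marcksl1 were nearest at 0.67, Basp1 and Marcks differed by 0.93, and Marcks and Marcksl1 by 1.15.

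Actin filament genes were read alongside, from a list of 70 drawn up by protein function, with earlier results of these data known. Of 24 that passed the filter on low counts, 12 rose and 1 fell in vehicle M1 against vehicle M0, and 11 did not pass. That is 54.2% called against 44.8% of all tested genes, and the median log2 fold change was 1.38 against 0.01. Genes low in M0 passed the filter through M1 alone, so neither number speaks for the whole list. Without the filter, 7 rose and 1 fell of 65 with a count, where 9.23% of 10978 genes were called. In ISRIB 13 of the 24 rose and 1 fell, or 58.3% called against 44.8% of all genes, with a median of 1.82 against -0.01. Of the 24 genes, 15 had no opposite-strand exon overlap.

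Actb, the main cytoplasmic actin gene, had 49, 38 and 24 counts in vehicle M0 and 178, 194 and 306 in vehicle M1. No library of the first group reached any of the second, and the log2 fold change was 3.01 ± 0.29 (SE; adjusted p = 3.23e-09, edgeR). Actg1, the other cytoplasmic actin gene, rose by 3.17 ± 0.77 on the log2 scale, from 4, 2 and 4 counts to 28, 18 and 25. Lcp1, the leukocyte actin-bundling protein L-plastin, rose by 2.18 ± 0.46 (adjusted p = 0.000348, edgeR) and overlaps Gm15628 and Gm15629. Capza2, a subunit of the protein that caps filament ends, rose by 2.53 ± 0.88. Its counts were 4, 4 and 2 in vehicle M0 and 28, 7 and 10 in vehicle M1, so replicate 1 held most of the M1 counts.

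Some of the largest fitted rises were at very low counts, and the vehicle M0 counts of Actg1 and Capza2 were also low. Tpm4, a tropomyosin gene that overlaps Gm26586, had 2, 0 and 1 counts in vehicle M0 and 11, 4 and 16 in vehicle M1. The ratio was 13.7, with an exact Poisson 95% interval of 4.26 to 69.8 for counting error only. Tmsb10, which encodes an actin monomer-binding thymosin, had 2, 2 and 2 counts and then 12, 10 and 13, a ratio of 7.71 with an interval of 3.21 to 22.4. Actg1, Capza2, Tpm4 and Tmsb10 passed the filter on low counts only through their M1 libraries. Their rises are therefore a description, and no p-value is given for them. Ssh1, a phosphatase that activates cofilin, was the gene that fell, from 106, 94 and 86 counts to 6, 10 and 10, a log2 fold change of -3.04 ± 0.39 (adjusted p = 2.39e-07, edgeR).

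The enzymes and calmodulins that act on MARCKS-type proteins or on the lipid they bind were mostly below the filter on low counts. Of 66 genes in that list 9 were tested, 2 rose and 1 fell in vehicle M1, or 33.3% called against 44.8% of all tested genes. The median log2 fold change was -0.22, against 0.01 for all genes. Here too genes low in M0, Prkch among them, passed the filter through M1 alone, so neither number speaks for the whole list. Without the filter, 3 rose and 1 fell of 54 with a count, where 9.23% of 10978 genes were called. In ISRIB again 2 rose and 1 fell, or 33.3% against 44.8%, with a median of 0.28 against -0.01. Prkch, the eta form of protein kinase C, had 4, 1 and 0 counts in vehicle M0 and 30, 13 and 19 in vehicle M1. Its ratio was 16.4, with an exact Poisson interval of 6.66 to 52.2. No p-value is given for Prkch, since it passed the filter through M1 alone. Synj2, a phosphoinositide phosphatase gene that overlaps Serac1, fell by 1.46 ± 0.51 on the log2 scale, from 43, 32 and 45 counts to 15, 10 and 8 (adjusted p = 0.0206, edgeR).

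**Figure D4:**
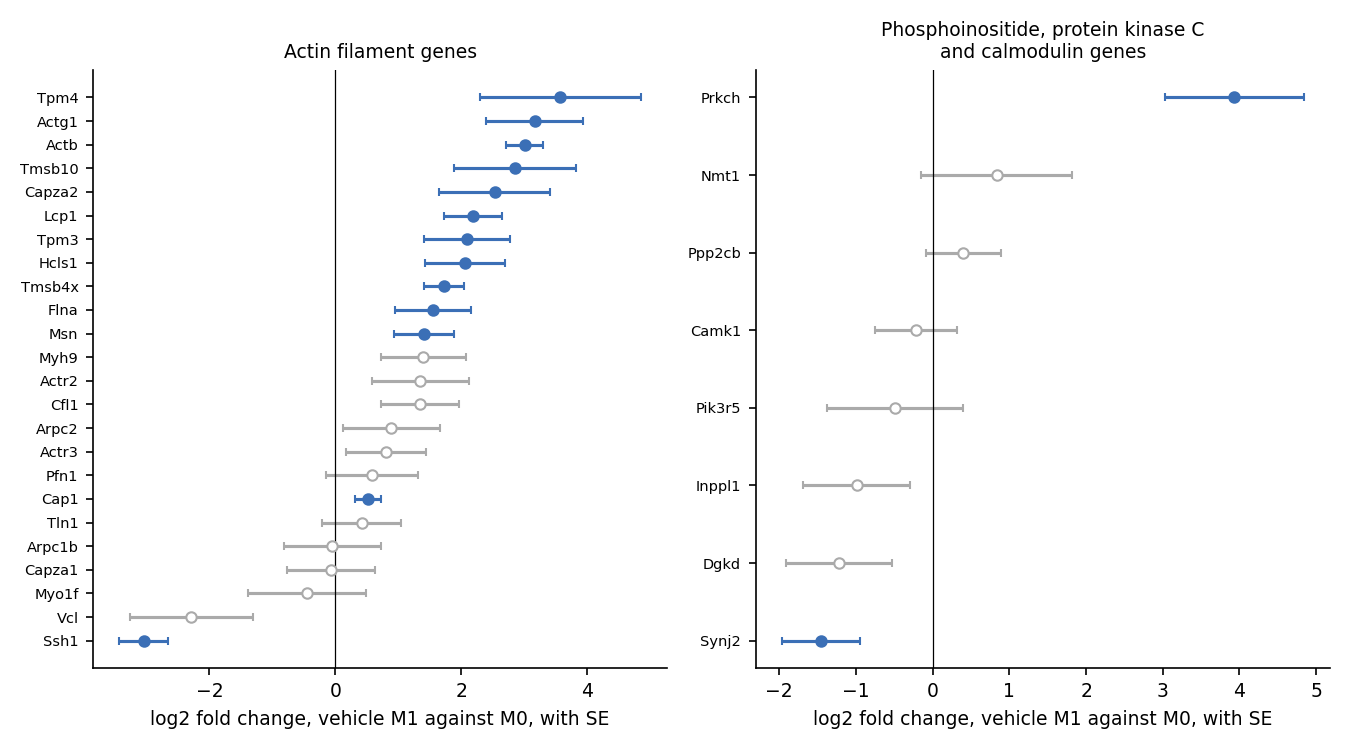
Log2 fold change of vehicle M1 against vehicle M0 with its standard error (horizontal axis) for the 24 tested actin filament genes and 8 of the 9 tested phosphoinositide, protein kinase C and calmodulin genes. Filled blue points passed the adjusted threshold of 0.05 (12 higher and 1 lower at left, 1 higher and 1 lower at right) and open grey points did not.

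No gene of either list was called under ISRIB by edgeR in M0, in M1 or in the interaction, where 0% of all genes were. At an unadjusted p under 0.05 there were 2, 1 and 3 of the 24 actin filament genes and 0, 0 and 0 of the other 9. Over all 2356 tested genes there were 143, 134 and 167, so nothing is read from the counts of the lists. The median log2 fold change of the actin filament genes under ISRIB was -0.45 in M0 and 0.17 in M1, with genes of few counts in M0 among them. Actb, which is better counted, had 0.35 ± 0.32 (SE) in M0 and 0.12 ± 0.25 in M1.

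The promoters of Basp1 and Marcksl1 are shown because the mean counts at both loci, of unknown strand, were higher in M1 with and without ISRIB. The RefSeq table of GRCm38.p6 held both and not Marcks. Each sequence covers the 250 bases before the start of transcription, 5′ to 3′ on the gene's strand, at chr15:25413765-25414014 (minus strand) for Basp1 and chr4:129513331-129513580 (plus strand) for Marcksl1. Capitals mark matches to the NF-κB consensus, searched on both strands.
Basp1: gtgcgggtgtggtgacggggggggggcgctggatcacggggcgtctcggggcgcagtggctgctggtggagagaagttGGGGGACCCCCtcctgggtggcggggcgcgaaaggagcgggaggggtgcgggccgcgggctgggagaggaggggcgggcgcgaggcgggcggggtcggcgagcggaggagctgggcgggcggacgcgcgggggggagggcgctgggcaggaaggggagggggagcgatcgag
Marcksl1: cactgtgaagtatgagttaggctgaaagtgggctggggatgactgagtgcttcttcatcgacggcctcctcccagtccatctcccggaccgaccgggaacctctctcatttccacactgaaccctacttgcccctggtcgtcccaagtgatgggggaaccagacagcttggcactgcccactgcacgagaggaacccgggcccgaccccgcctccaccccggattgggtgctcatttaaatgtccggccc
The Basp1 window held 2 overlapping matches to that consensus, in a single run of 11 bases, and the Marcksl1 window held 0. Of 32851 promoter windows of this length, 7.25% held at least 1. The GC box GGGCGG occurred at 4 places in the Basp1 window, a pair of which overlap, and at 0 in that of Marcksl1, against 32.7% of all windows with at least 1. The TATA box TATAAA (12.4% of all windows), the GAS element TTCNNNGAA (7.02%) and the interferon-stimulated response element (2.98%) had 0 matches in both. GC content was 78.8% in the Basp1 window and 60.4% in that of Marcksl1, with 30 and 12 CpG, where the medians of all windows were 52.4% and 6. A match of letters is a description and shows no binding.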

How the data were processed

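RNA was sequenced from 12 samples of mouse bone marrow-derived macrophages, as strand-specific mRNA libraries per the labels' protocols. The authors deposited whole-number counts per gene symbol, and a second table of log2 values. Per the values of both deposited tables, each log2 value is the log2 of a count divided by a factor per library, plus 1. The submitters' processing notes list FastQC, HTSeq, DESeq2 and the build mm10, with no version or role. The aligner, annotation and strand setting are not given in the sources used here.

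Deposited counts were fitted in R 4.3.3 with edgeR 4.0.16 (filterByExpr with minimum count 10 and minimum total 15, TMM, a mean per group over all 12 samples, quasi-likelihood test). P-values were adjusted by Benjamini-Hochberg over the 2356 genes kept, which held 97.6% of counts, with a threshold of 0.05. Standard errors came from the fit's variance, with negative binomial weights and the moderated dispersion. The interaction is the ISRIB effect in M1 minus that in M0. Limma 3.58.1, DESeq2 1.42.0, no filter, other scaling, a replicate block, fits of only the compared groups and leaving out samples were alternatives. On simulated data with 100 genes changed 2-fold and 100 changed 4-fold between vehicle M1 and M0 (2356 genes), 36.0% and 76.0% were recovered, with 3 false calls. Far fewer genes were changed there than the 1055 called in the data. The adjustment depends on that share, so these percentages do not give the recovery in the M1 contrast. Exon overlaps were found with bedtools 2.31.1 on GENCODE M21.

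The members and lists were chosen with earlier results of these data known. Named besides the members were their nearest opposite-strand genes, Gap43, 5 polarization markers, the 6 largest rises and falls called in each list in vehicle, and the 3 nearest profiles of each member. Of these, 1 called gene of the phosphoinositide list is not reported here. A log2 profile used a prior count of 2. No 2 replicates agreed within sampling noise (chi-square per degree of freedom 4.34 or more).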

Additional observations from a re-analysis of the deposited data

How the results depend on the processing

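Of 195 alternative log2 fold changes, 170 kept their direction and their side of the threshold, and of 75 alternative counts of genes, 65 were equal to the reported count or within 1.5 times of it. For Basp1 and Marcks every alternative run kept the direction in all 5 contrasts. Without a filter on low counts, 10 genes were called for ISRIB in M0 and 9 in the interaction, Basp1 was called in both (log2 fold changes 0.87 and -1.43), Marcksl1 lost its M1 call in vehicle (2.02) and in ISRIB (2.02), and 8 of 65 actin filament genes were called in place of 13 of 24, where 9.23% of 10978 genes were called in place of 44.8% of 2356. The DESeq2 Wald test called 3 genes for ISRIB in M0. In a fit of only the groups compared, Marcksl1 lost its M1 call in ISRIB (2.07). The interaction of Marcksl1 turned positive with limma on the deposited log2 values (0.24). The cause of these changes was not tested, apart from the other genes tested and samples fitted that the settings bring.

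When the replicate number entered as a block, 3 genes were called in the interaction, Basp1 among them (-1.45), that of Marcksl1 was 0.049, and 1047 and 1026 genes were called for M1 in vehicle and in ISRIB. Same-numbered deviations had correlations of -0.0600 to 0.113 over 4 contrasts, which cannot settle whether the numbers pair samples. Within each replicate number the library names run in sequence over the groups, and the labels do not say what a number shares. Every sample correlated best with its own number for ISRIB against vehicle in M0 and M1 against M0 in ISRIB, and 2 of 6 did in the other contrasts.

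Leaving out 1 sample at a time, genes called under ISRIB ran from 0 to 1 in M1 (1 without ISRIB M1 replicate 2), from 0 to 4 in M0 and from 0 to 4 in the interaction, in both cases with 4 without ISRIB M0 replicate 1. Basp1 ran from 0.50 to 1.17 for ISRIB in M0 and from -1.74 to -1.07 in the interaction, and was called in both without ISRIB M0 replicate 1. Marcksl1 ran from 1.83 to 2.59 for M1 in vehicle, losing its call without vehicle M0 replicate 1 or 2 or vehicle M1 replicate 2. It ran from 1.54 to 2.59 for M1 in ISRIB, losing its call without ISRIB M0 replicate 1 or ISRIB M1 replicate 1 or 2. For ISRIB in M0 it ran from -0.80 to 0.25, and in the interaction from -0.60 to 0.45. Depth limits Marcks and Marcksl1, with at most 54 and 22 counts in a library.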
